A study of Mus musculus with 2 samples.

Results

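Counts of miRNA genes best known from liver, gut and kidney were followed in mouse heart. The genes were Mir122, of hepatocytes, and Mir192, Mir194-2, Mir215 and Mir194-1, which encode miR-192, miR-194 and miR-215. They were picked out by name in the GENCODE M21 annotation, with earlier results of these data known, and are 5 of the 2202 miRNA genes in the deposited tables. Small RNA of heart tissue was sequenced in 2 libraries, replicates 1 and 2, taken from male adults (strain 5xFAD/CAST, 8 to 10 months of age). The 5xFAD transgenes, a model of amyloid deposition in brain, express mutant human amyloid precursor protein and presenilin in neurons, and CAST is a wild-derived inbred strain. Both libraries carry the same strain label and tissue, and no control strain, treatment or second tissue was analysed here. The labels number the libraries as biological replicates 1 and 2, each with technical replicate number 1. They give the replicates separate biosample entries but the same donor entry, and separate animals are not named. Any difference between the replicates is thus a difference of 2 libraries and may be technical.

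miR-122 is the dominant miRNA of hepatocytes, where it is cut from a long non-coding transcript and represses genes of lipid and cholesterol metabolism. It also circulates in blood plasma, where it is used as a marker of liver injury. The genes of miR-192, miR-194 and miR-215 are found in a pair of short clusters, Mir192 with Mir194-2 and Mir215 with Mir194-1, each made as a joint primary transcript. These miRNAs are typical of intestinal, kidney and liver epithelium, where hepatocyte nuclear factors drive their transcription, and they also respond to p53.

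A read is given to a hairpin only if it aligns to a single place, so the sequences decide which members can be counted in full. Mature sequences from RefSeq (GRCm38.p6, the same assembly as mm10) were used for 4 of the 5 members, Mir122 being the other. They are shown because miR-192 and miR-215 share a seed, the stretch of bases 2 to 8 that pairs with target mRNAs, and because the Mir194 hairpins share a whole mature arm. The seed is in capitals, 5′ to 3′:
miR-192-5p: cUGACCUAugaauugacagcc
miR-215-5p: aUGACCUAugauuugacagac
miR-194-5p: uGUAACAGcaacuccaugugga
miR-192-3p: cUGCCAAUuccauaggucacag
miR-215-3p: uCUGUCAUucuguaggccaau
miR-194-1-3p: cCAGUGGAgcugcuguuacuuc
miR-194-2-3p: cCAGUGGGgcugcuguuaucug

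miR-192-5p and miR-215-5p carried the same seed, UGACCUA, and no other mature arm in the RefSeq table had it. Counting from 1 at the 5′ end and reading from miR-192-5p to miR-215-5p, they differed at 3 of 21 bases, C1A, A12U and C20A. All of these lie outside the seed. The longest stretch that the Mir192 and Mir215 hairpins shared was 10 nt, so a read of a full mature arm can be told apart between these genes. The miR-194-5p arm, by contrast, was the same in both Mir194 hairpins, and its seed, GUAACAG, occurred in no other arm. The 3p arms of these hairpins differed at 4 of 22 bases, A8G, C19U, U20C and C22G from miR-194-1-3p to miR-194-2-3p, of which A8G falls in the seed.

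The hairpins of Mir194-2 (mm10 chr19:6264643-6264728, plus strand) and Mir194-1 (mm10 chr1:185313319-185313385, plus strand) are shown because the longest stretch common to both, 22 nt, is a mature arm. It is in capitals and is exactly miR-194-5p:
Mir194-2: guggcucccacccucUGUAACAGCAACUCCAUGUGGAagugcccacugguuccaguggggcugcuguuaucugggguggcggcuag
Mir194-1: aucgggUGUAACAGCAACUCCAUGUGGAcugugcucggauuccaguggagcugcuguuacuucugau

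A read that ended exactly at the annotated ends of miR-194-5p could come from either hairpin, while a read of a 3p arm, or of the 5p arm with a flanking base that matches the genome, could be placed. Of the 20-nt windows of the hairpins, 3 of 67 in Mir194-2 (4.48%) and 3 of 48 in Mir194-1 (6.25%) also occurred in the other hairpin. The windows of Mir122, Mir192 and Mir215 occurred in no other annotated hairpin. Among all 2202 hairpins, 49.4% held at least 1 window found at another locus. This share counts hairpins rather than windows, and Mir194-2 and Mir194-1 are among those hairpins. Of 1628 distinct mature sequences found in an annotated hairpin, 74 (4.55%) lay in more than 1 locus, and miR-194-5p is among these. Reads that aligned to several places made up 42.3% and 46.8% of the reads in the tables of replicates 1 and 2 and were given to no gene. The levels of Mir194-1 and Mir194-2 may therefore be understated, and the tables do not show how many miR-194-5p reads were set aside. The map of the hairpins sets these stretches out.

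**Figure D1:**
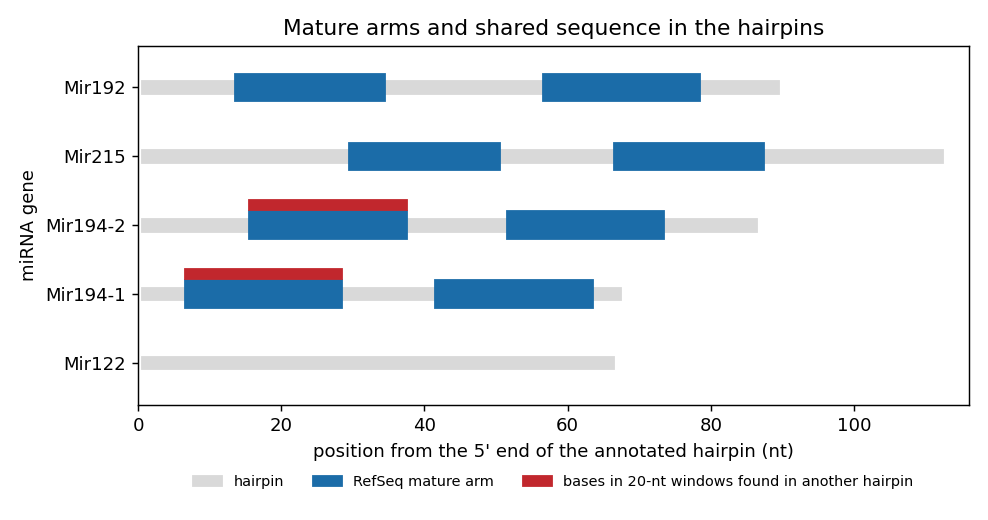
Hairpins drawn to scale by position in nt from the 5′ end of each annotated hairpin (grey), with RefSeq mature arms (blue; those of Mir122 are not drawn) and the bases covered by 20-nt windows found in another annotated hairpin (red). The red stretch covers the 5p arm of Mir194-2 and Mir194-1, and Mir192, Mir215 and Mir122 have none.

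In GENCODE M21 on mm10, the cluster on chromosome 19 lies outside other annotated genes. Mir194-2 (ENSMUSG00000065582.1) starts 2308 nt downstream of Atg2a, an autophagy gene, and Mir192 (ENSMUSG00000065523.1, chr19:6264844-6264932, plus strand) follows it with 115 bases between the hairpins. The opposite-strand long non-coding gene Gm14963 lies 3863 nt from Mir192. The cluster on chromosome 1 lies in a non-coding gene, 2010103J01Rik, which runs antisense to introns of Iars2, the gene of the mitochondrial isoleucyl-tRNA synthetase. Mir194-1 (ENSMUSG00000065581.1) is intronic in 2010103J01Rik, and Mir215 (ENSMUSG00000065562.1, chr1:185313581-185313692, plus strand) is exonic, with 195 bases between the hairpins. Mir122 (ENSMUSG00000065402.1, chr18:65248861-65248926, plus strand) lies within an exon of the long non-coding gene AC157910.3.

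All 5 members were counted in both libraries, at low levels. Levels are given as CPM, the sense count scaled by the total of sense counts over all miRNA genes. These totals summed to 3889280 in replicate 1 and 5058613 in replicate 2. A count of 0 would allow up to 3 counts, or 0.771 and 0.593 CPM, by an approximate one-sided 95% limit. Intervals are two-sided exact Poisson 95% intervals for counting error only, since these are PCR reads without recorded molecular identifiers.

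Mir122 had 112 sense counts in replicate 1 and 137 in replicate 2. These correspond to 28.8 CPM (23.7 to 34.7) and 27.1 CPM (22.7 to 32.0), a mean of 27.9 ± 1.21 CPM (SD, n = 2). The intervals overlapped almost wholly, so the hepatocyte gene did not differ detectably between the libraries at this depth.

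Mir192, the first of the chromosome 19 pair, had 97 and 132 counts. Its levels were 24.9 CPM (20.2 to 30.4) and 26.1 CPM (21.8 to 30.9), a mean of 25.5 ± 0.816 CPM. Its partner Mir194-2 had 43 and 105 counts, or 11.1 CPM (8.00 to 14.9) and 20.8 CPM (17.0 to 25.1), a mean of 15.9 ± 6.86 CPM. The intervals of Mir192 overlapped between the libraries, and those of Mir194-2 did not, with replicate 2 the higher.

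Mir215, the seed relative of Mir192, had 118 and 276 counts and was the member with the highest sense CPM in each library. Its levels were 30.3 CPM (25.1 to 36.3) and 54.6 CPM (48.3 to 61.4), a mean of 42.5 ± 17.1 CPM, and the intervals did not overlap. Its partner Mir194-1 had 72 and 92 counts, or 18.5 CPM (14.5 to 23.3) and 18.2 CPM (14.7 to 22.3), a mean of 18.3 ± 0.230 CPM. The intervals of Mir194-1 overlapped almost wholly. How many other genes had intervals that did not overlap was not counted. By the exact binomial test given later, 45.4% of the 412 tested genes were called different between the libraries. Intervals apart are thus no particular trait of Mir215 and Mir194-2.

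**Figure D2:**
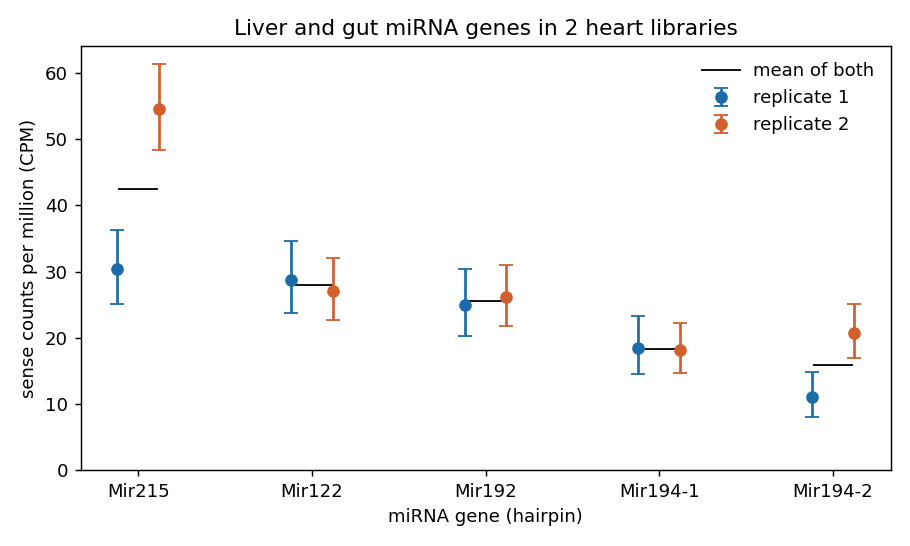
Level in CPM, from sense counts, of each miRNA gene in replicate 1 (blue) and replicate 2 (orange), with exact Poisson 95% intervals as bars and the mean of both as a black line. Mir215 and Mir194-2 are higher in replicate 2 with intervals that do not overlap, and Mir122, Mir192 and Mir194-1 overlap. Intervals of other genes were not compared in this way.

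By mean CPM the order was Mir215, Mir122, Mir192, Mir194-1 and Mir194-2. In replicate 1 the interval of each gene overlapped that of its neighbour in this order, for Mir194-1 and Mir194-2 only narrowly. In replicate 2 Mir215 stood apart, and the other neighbours overlapped. Mir194-1 was above Mir194-2 in replicate 1 and below it in replicate 2. A small RNA read spans its whole molecule, so CPM was not divided by length. Per base of the annotated hairpin, Mir122, whose hairpin is only 66 nt, came first on average, at 0.423 CPM per nt against 0.379 for Mir215. That order held in replicate 1, at 0.436 against 0.271, and was reversed in replicate 2, at 0.410 against 0.487. Mir192 stood at 0.287, Mir194-1 at 0.274 and Mir194-2 at 0.185 CPM per nt.

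Together the members held 442 sense counts in replicate 1 and 742 in replicate 2. These are 114 CPM (103 to 125, Clopper-Pearson 95% limits) and 147 CPM (136 to 158), with a mean of 130.2 ± 23.4 CPM. The chromosome 1 pair summed to 48.9 and 72.7 CPM and the chromosome 19 pair to 36.0 and 46.9 CPM. Of the 325 detected genes, those reaching 10 sense counts in each library, the share with a lower mean CPM ran from 30.8% for Mir194-2 to 46.8% for Mir215. The median of the members was 25.5 CPM, and that of all detected genes 49.2 CPM. By this mean all members lay below the median of detected genes, although Mir215 reached 54.6 CPM in replicate 2.

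The heart label was checked against markers of heart cells. Mir208a, from an intron of the cardiac myosin gene Myh6, stood at 2685 ± 1697 CPM. It exceeded Mir122 by 135 to 1 in replicate 1 and 54.8 to 1 in replicate 2. Mir499, from an intron of the myosin gene Myh7b, stood at 4310 ± 2232 CPM, and Mir208b at 85.6 ± 41.1 CPM. The endothelial gene Mir126a, at 87451 ± 476 CPM, exceeded Mir122 by 3133 ± 153 to 1. Of the fibroblast markers, Mir214 stood at 1926 ± 950 CPM and Mir199a-2 had 20 and 17 counts. Mir199a-1 had 0. Only reads that align to a single place are counted, and sequence that the Mir199a hairpins share was not examined gene by gene. The Mir199a counts may thus be understated and do not show that their miRNAs are absent from heart.

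Other miRNA genes of liver, gut and kidney ranged from no counts to far above the members. Of 9 such genes, 7 were detected, and the list had a median of 125 CPM. Mir802, a gene of liver, pancreas and kidney, had 0 counts in both libraries, and Mir1948 had 7 and 8. Mir148a, abundant in liver but made in many tissues, stood at 73.3 ± 9.76 CPM, and Mir483, from an intron of Igf2, at 52.8 ± 21.3 CPM. The most abundant genes of this list were Mir10a at 1561 ± 179 CPM, Mir31 at 801 ± 482 CPM and Mir10b at 691 ± 17.3 CPM, and none of these is specific to liver or gut. The genes of this list, some of them made in many tissues, thus did not stand at a common level.

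Genes of other organs gave a range to set the members against. The pancreas genes Mir216a, Mir216b and Mir217 had 1 and 0, 0 and 0, and 4 and 4 counts. Of 11 neuronal genes, 4 had 0 counts in both libraries, and the highest were Mir128-1 at 174 ± 45.2, Mir137 at 15.6 ± 2.48 and Mir219a-1 at 12.8 ± 5.53 CPM. The skeletal muscle gene Mir206 stood at 13.3 ± 2.30 CPM and Mir133b at 4.50 ± 0.907 CPM. Mir122, Mir192 and Mir215 were above all 3 pancreas genes, both skeletal muscle genes and all neuronal genes except Mir128-1. These are counts per hairpin of reads that align to a single place, and several neuronal hairpins have near-identical copies. Sequence that the skeletal muscle and pancreas hairpins share with others was not examined gene by gene. Their levels may be understated too, and the ranking holds for these counts only.

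The 2 genes nearest to each member in level, by distance of log2(CPM + 1) over the 2 libraries, were never other members. They were Mir421 and Mir29b-2 for Mir122, Mir299a and Mir92b for Mir192, Mir20b and Mir429 for Mir194-2, Mir144 and Mir409 for Mir215, and Mir434 and Mir582 for Mir194-1. Among these neighbours, Mir429 is on the epithelial list and Mir144 on the blood cell list given below. The closest was Mir299a, with 94 and 133 counts against 97 and 132 for Mir192. With 2 libraries this likeness is a description of level only.

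Mir122 differed from the other members in its strands. The deposited tables count each strand in a column of its own, and the fuller of these was read as sense. On the opposite strand of Mir122 there were 62 counts in replicate 1 and 43 in replicate 2, which are 15.9 and 8.50 CPM with a mean of 12.2 ± 5.26 CPM. They made up 35.6% of the 174 reads at Mir122 in replicate 1 (95% Clopper-Pearson interval 28.5 to 43.2). In replicate 2 they made up 23.9% of 180 reads (17.9 to 30.8), for a mean of 29.8% ± 8.30.

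The other 4 members had 0 opposite-strand counts against 330 and 605 sense counts. By the one-sided limit of 3 counts, this allows a share of up to 0.909% in replicate 1 and 0.496% in replicate 2. GENCODE M21 annotates no miRNA gene on the other strand of any member. Among the 2138 miRNA genes of which this is true, 27 had an opposite-strand count in replicate 1 (1.26%) and 28 in replicate 2 (1.31%). Mir122 had the most in both libraries. The next were Mirlet7b with 7 counts in replicate 1, and Mirlet7b and Mir324 with 7 each in replicate 2, against 245754 and 304790 sense counts for Mirlet7b.

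Mir122 alone held 57.9% of the 107 opposite-strand counts at these 2138 genes in replicate 1 (48.0 to 67.4) and 39.4% of 109 in replicate 2 (30.2 to 49.3). Many of the 2138 genes had few or no reads. Of such genes with at least 50 sense counts, 8 of 210 had an opposite-strand count in replicate 1 and 9 of 223 in replicate 2. Among the genes with at least 50 sense counts, the next highest opposite-strand share was 0.251%, for Mir1839, in replicate 1. In replicate 2 it was 2.96%, for Mir708. The share at Mir122 was higher in replicate 1 than in replicate 2 by a two-sided Fisher's exact test on the counts (p = 0.0197, unadjusted, 1 test chosen after the counts were seen). That p covers counting error between these libraries only.

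The RefSeq gene table for GRCm38.p6 lists a second miRNA gene inside the Mir122 interval, Mir122b (chr18:65248863-65248921), which the GENCODE annotation used for counting does not have. That table gives no strand. Of 47 genes with an opposite-strand count in either library and no GENCODE miRNA gene opposite, 3 had more than 1 RefSeq miRNA gene in their interval, namely Mir122, Mir203 and Mir3083. Whether the opposite-strand reads are Mir122b reads was not tested, because the tables hold no read positions.

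**Figure D3:**
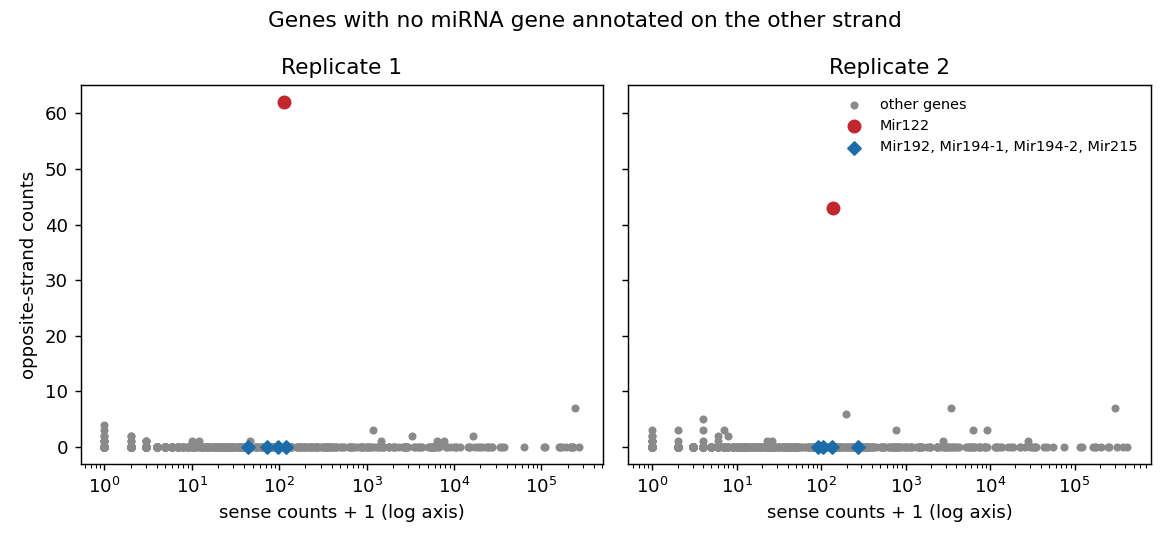
Opposite-strand counts (linear axis) against sense counts plus 1 (log axis) for each of the 2138 miRNA genes with no miRNA gene annotated on the other strand, in replicate 1 (left) and replicate 2 (right). Mir122 (red) stands at 62 and 43 opposite-strand counts, every other gene at 7 or fewer, and the other 4 members (blue) at 0.

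The column that ignores strand gives Mir122 174 and 180 reads, the sum of both strands, and the other members the same counts as the sense column. A level of Mir122 taken from that column would include the opposite-strand reads, and the 112 and 137 sense counts do not. In that column Mir122 exceeded Mir215 in replicate 1, with 174 against 118 reads.

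The members that differed between the libraries, Mir215 and Mir194-2, belong to different clusters. Each gene was tested by an exact binomial test, two-sided, of its counts against the ratio of TMM-scaled library totals (edgeR), with Benjamini-Hochberg adjustment over the 412 genes with a summed count of at least 10. Each arm is a single library and reads are taken as independent, so these p-values and the fold intervals cover counting error only. Of the 5 members, 2 were called, both higher in replicate 2. Over all tested genes 45.4% were called, made up of 22.6% that were higher in replicate 2 and 22.8% that were lower there. Of 50 genes with a summed count between 148 and 394, the range of the members, 30% were called. The count of called members is near this background and says nothing particular about them.

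Mir215 was 1.96-fold higher in replicate 2 (95% exact interval 1.57 to 2.45; adjusted p = 1.5e-09, exact binomial test). Its cluster partner Mir194-1 was not called, at 1.07-fold (0.776 to 1.48; adjusted p = 0.819, exact binomial test). On the other cluster, Mir194-2 was 2.04-fold higher in replicate 2 (1.42 to 2.98; adjusted p = 0.00014, exact binomial test). Its partner Mir192 was not called, at 1.14-fold (0.869 to 1.49; adjusted p = 0.49, exact binomial test). The called genes are thus 1 hairpin of each cluster, and their partners lie 195 and 115 bases away.

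Mir122 was not called either, at 1.02-fold (0.791 to 1.32; adjusted p = 0.962, exact binomial test). The median log2 ratio of replicate 2 over replicate 1 was 0.18 over the members and -0.01 over all tested genes. In size without sign, the log2 ratio of Mir215 exceeded that of 86.7% of tested genes and that of Mir194-2 exceeded 86.9%. Mir122 exceeded only 6.07%, Mir194-1 11.7% and Mir192 25.5%.

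**Figure D4:**
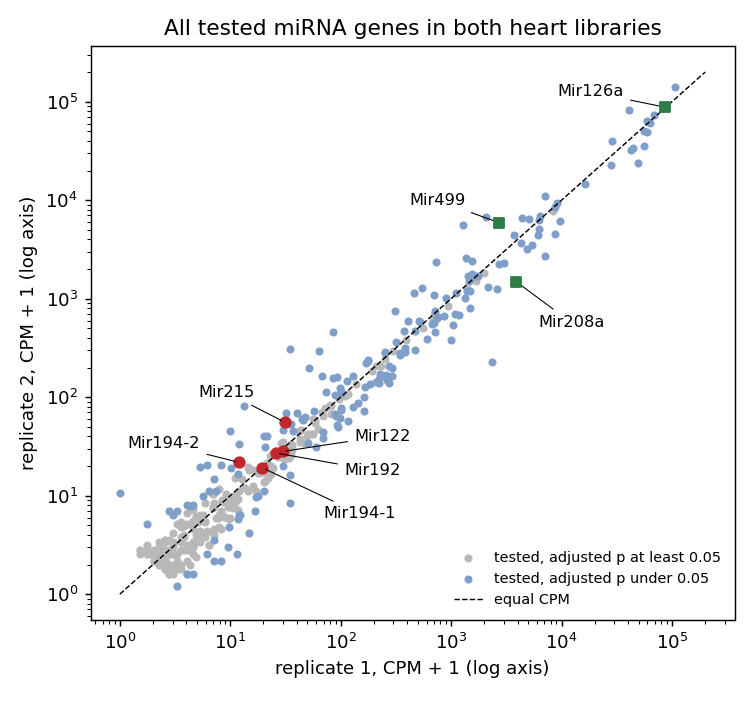
Each tested miRNA gene by CPM + 1 in replicate 1 and replicate 2 (both log axes), blue where the exact binomial test was called and grey where it was not, with the 5 members in red and 3 heart markers as green squares. Mir215 and Mir194-2 lie above the line of equal CPM, while Mir122, Mir192 and Mir194-1 lie on or close to it.

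Ratios within a library do not depend on scaling and are given with exact 95% Clopper-Pearson limits turned into ratios, for counting error only. On chromosome 1, Mir194-1 had 0.61 counts for each count of Mir215 in replicate 1 (0.449 to 0.825) and 0.333 in replicate 2 (0.26 to 0.424), and these intervals did not overlap. On chromosome 19, Mir194-2 had 0.443 counts for each of Mir192 in replicate 1 (0.302 to 0.641) and 0.795 in replicate 2 (0.61 to 1.04), with intervals that met narrowly. Both ratios hold a Mir194 gene, whose count may be understated by reads of the shared 5p arm, and the share of reads set aside differed between the libraries.

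Between the clusters, Mir215 exceeded its seed relative Mir192 by 1.22 to 1 in replicate 1 (0.922 to 1.61) and 2.09 to 1 in replicate 2 (1.69 to 2.59). In replicate 1 the interval includes equal counts, and in replicate 2 it does not. Mir194-2 stood at 0.597 of Mir194-1 in replicate 1 (0.4 to 0.883) and 1.14 in replicate 2 (0.854 to 1.53). The same limit applies to that ratio. Mir122 and Mir192 had nearly equal counts, with ratios of 1.15 (0.872 to 1.53) and 1.04 (0.811 to 1.33).

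**Figure D5:**
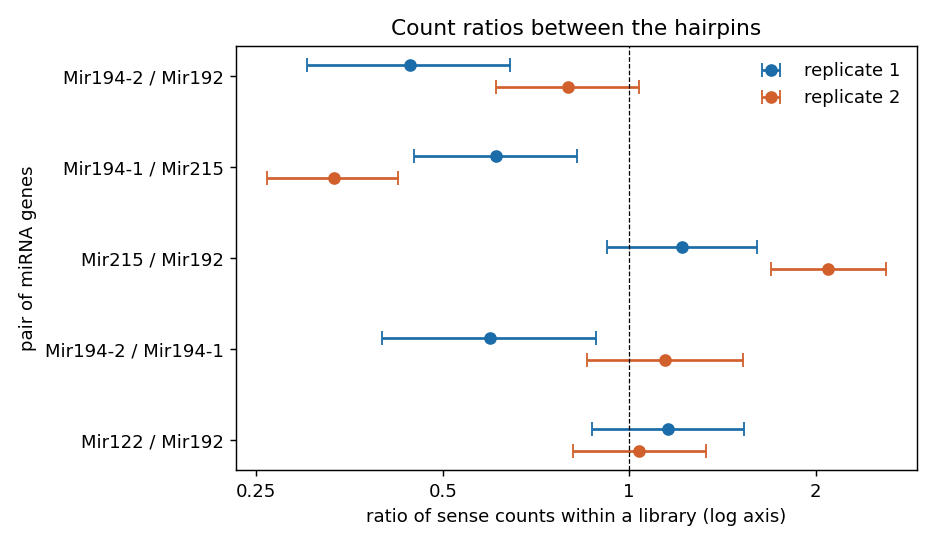
Ratios of sense counts between members within replicate 1 (blue) and replicate 2 (orange) on a log axis, with exact 95% intervals and a dashed line at equal counts. The intervals of the 2 libraries are apart for Mir194-1 over Mir215 and for Mir215 over Mir192, and overlap for the other 3 ratios.

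Most epithelial markers were also higher in replicate 2. Of the 8 genes of the epithelial list, 6 were called higher in replicate 2 and 0 in replicate 1, against 22.6% and 22.8% of all tested genes, and the list summed to 203 and 386 CPM in replicates 1 and 2. The most abundant were Mir203, a gene of skin and other squamous epithelium, with 325 and 779 counts, Mir200c with 282 and 560, and Mir375, of pancreatic islet and enteroendocrine cells, with 74 and 200. Mir205 had 0 and 49 counts and Mir200a 8 and 27, so these called genes fell short of detection in replicate 1. Mir141 and Mir429 were not called. With DESeq2 size factors, the filter of at least 50 counts or the column that ignores strand, Mir429 was called higher in replicate 2. The part of epithelial RNA in the difference of Mir215 and Mir194-2 was not tested.

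Lists of heart and other cells went both ways. Over all tested genes 22.6% were called higher in replicate 2 and 22.8% lower there, and calls at high counts include small folds. Of the heart muscle genes Mir499 was called higher in replicate 2, with 2732 and 5888 CPM, and Mir208a and Mir208b lower. The fibroblast gene Mir214 was called lower in replicate 2, and both smooth muscle genes, Mir143 and Mir145a, higher, at 1.53-fold and 1.13-fold. Of the 8 tested genes of the other liver, gut and kidney list, 4 were called higher in replicate 2, Mir31, Mir10a, Mir101a and Mir101b, and 1 lower, Mir483. In this order, their folds of replicate 2 over replicate 1 were 2.70, 1.28, 1.90, 1.43 and 0.605. The 6 genes of the blood cell list summed to 3611 CPM in replicate 1 and 3032 CPM in replicate 2. Of these, 1 gene, Mir144, was called higher in replicate 2, at 1.77-fold. In replicate 1, 2 were higher, Mir451a and Mir486, with folds of replicate 2 over replicate 1 of 0.622 and 0.837. In the column that ignores strand only 3 of these 6 were tested, and Mir144 alone was called. Mir486, which is also a muscle gene, held 1334 and 1026 CPM of the blood cell sums, so these are no measure of blood alone. Of 7 genes of the p53-responsive list, which holds the 4 family members, 4 were called higher in replicate 2, of which 2 are Mir215 and Mir194-2 themselves, and 0 in replicate 1, against 22.6% and 22.8% of all tested genes. The 3 that are no members were Mir34a, with 8747 and 8608 CPM and a 1.07-fold call that was lost with total counts, Mir34c, with 154 and 342 counts, and Mir34b, with 9 and 8 counts, not called. The p53 target Mir34a was the only abundant gene of this list, and its direction is not settled, since its CPM was lower in replicate 2.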

How the data were processed

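The authors deposited a table of raw read counts for each library, with 3 count columns for 2202 miRNA genes and 4 summary lines that name no gene. Build mm10 and annotation GENCODE M21 are given per the description files deposited with the tables. For the aligner, its version and read filters the sources used here give nothing. The first column ignores strand and the others hold a strand each, as judged from layout and values. Of these, the fuller in each library was read as sense; it was the same column in both.

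All 2202 gene IDs matched GENCODE M21. The summary lines entered no total and no test, and sense counts were 35.9% and 35.6% of reads. Log2 ratios use TMM factors of edgeR 4.0.16 and 1 CPM added to both levels, which understates low genes; folds have nothing added. Per-gene exact binomial tests and intervals used scipy 1.17.1, and the tests were checked on simulated Poisson counts with known library totals. Those counts held set folds and counting error only, so the check does not cover other variation between libraries. With a single group, no quasi-likelihood test was fitted. Calls use an adjusted p of 0.05.

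Named genes were the members, miRNA genes within 10 kb, the 2 nearest in level, and fixed lists with their 3 most abundant members. Members and lists were chosen with earlier results of these data known. Hairpin sequences came from GENCODE M21 transcripts and were compared on both strands. No genome sequence was used, so shared windows outside annotated hairpins were not counted.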

Additional observations from a re-analysis of the deposited data

How the results depend on the processing

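Mir215 and Mir194-2 kept their direction and their call under total counts, DESeq2 size factors, both other low-count filters and the column that ignores strand, with log2 ratios of 0.83 to 1.00 and 0.85 to 1.03. Mir122, Mir192 and Mir194-1 were called under none of these, and adjusted p-values of the exact binomial test ran from 0.364 to 1. The sign of the small ratios was not settled: with total counts Mir122 stood at -0.085 and Mir194-1 at -0.024, and in the column that ignores strand Mir122 stood at -0.16, where the opposite-strand reads are included by construction. Total counts moved the median log2 ratio of detected genes by -0.12 and the share of calls higher in replicate 2 from 49.7% to 39.7%. The number of genes called in all, 187 of 412 tested, ran from 174 to 199. The number tested changed with the filter. Without a low-count filter 182 of 712 were called, and with a summed count of at least 50, 175 of 282. The background of 45.4% thus holds for the main filter only. No paired analysis was possible because the samples form a single group.

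With all reads of the tables as denominator the levels are lower by construction, at 9.99 CPM for Mir122, 9.12 for Mir192, 5.68 for Mir194-2, 15.2 for Mir215 and 6.56 for Mir194-1. From the column that ignores strand, whose total is smaller, they were 52.5 CPM for Mir122, 33.4 for Mir192, 20.97 for Mir194-2, 55.9 for Mir215 and 24.0 for Mir194-1, and the ratio of Mir122 to Mir192 was 1.58. The sum of both strands put Mir122 at 40.2 CPM. Leaving out either library gave 27.1 to 28.8 CPM for Mir122, 24.9 to 26.1 for Mir192, 11.1 to 20.8 for Mir194-2, 30.3 to 54.6 for Mir215 and 18.2 to 18.5 for Mir194-1. A single library thus moves Mir194-2 and Mir215 most. Windows of 18 and 22 nt gave shared shares of 7.25% and 1.54% for Mir194-2 and 10.0% and 2.17% for Mir194-1, and 0% for the other members. The 43 to 276 counts of a member in a library limit what could be detected.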
